A study of Mus musculus with 30 samples.

Results

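Nascent transcription after 3 h of auxin was described for 18291 genes, those with a mean normalised count above 0 among the 21859 rows of the authors' deposited table for that time. The deposited tables of all time points together held 19258 such genes. Transcripts upstream of promoters (PROMPTs), enhancer RNAs (eRNAs) and DNase-hypersensitive sites (DHSs) at 3 h are given beside the genes. The libraries are TT-seq libraries of mouse E14 embryonic stem cells, grown without feeders, with LIF and inhibitors of GSK3 and MEK. Of 30 libraries in the series, 22 belong to the time course and 6 are titled 3 h, in 3 groups of 2. SPT16_AID_V5 cells carry a C-terminal mini-AID degron and a triple V5 tag on Supt16, and were given 500 nM 3-IAA for 3 h in clones 1 and 2. The same 2 clones were given ethanol (EtOH), the vehicle, for 3 h. Untagged cells were given 500 nM 3-IAA for 3 h in replicates 1 and 2. Per the labels, osTIR1, the plant F-box protein that delivers degron-tagged proteins to the proteasome when auxin is present, was integrated into the genome. Each tagged library is therefore 1 clone, and the groups rest on titles: the tag field contradicts the title in 3 of the 6 libraries and the treatment field in 1. The descriptions tie exactly these 6 libraries to the 3 h tables, but the groups set against each other, and the direction, are not given in the sources used here. Values are therefore called positive or negative as signed, with no statement of which cells were higher, and no value per library can be given for the time course.

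SPT16 and SSRP1 form FACT, a histone chaperone that takes nucleosomes apart ahead of RNA polymerase and puts them back behind it. In embryonic stem cells FACT is known for its place at highly transcribed genes and for its link to pluripotency factors. TT-seq labels RNA with 4-thiouridine for 5 min, so that most reads of a long gene come from introns that have not yet been removed, whereas a short gene with few introns gives mostly exonic reads. The exonic share of a gene, used throughout, is the percentage of its span covered by exons in the GENCODE M21 annotation. It could be computed for 18277 of the 18291 genes (99.9%), of which 18247 are protein coding.

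At 3 h, 58 genes were positive and 5 negative at an adjusted p below 0.05 per the authors' deposited table. That is 0.577% of the 10920 genes with an adjusted p, with 0.531% positive and 0.0458% negative. At an unadjusted p below 0.05, 1035 genes were positive and 528 negative, which is 5.66% and 2.89% of the 18291. The table gives no adjusted p to the 7371 genes with low counts, and the lowest mean count with one was 84.3. The called genes sat close to the threshold, 61 of the 63 having an adjusted p between 0.04 and 0.05 per the authors' deposited table. The highest adjusted p of a called gene was 0.0497 per the authors' deposited table, and the next genes, all at 0.0507, were Slc6a8 (0.73), Ssrp1 (0.73), Mlf2 (0.79), Vat1 (0.81) and Tor3a (−0.86). Ssrp1, the gene of the other FACT subunit, thus stood just outside at 0.73 ± 0.27 (log2 fold change ± SE) per the authors' deposited table. Supt16 itself, whose protein and not its RNA is the target of the degron, was at 0.11 ± 0.14 (adjusted p = 0.579) per the authors' deposited table. The log2 fold changes are shrunken toward 0, so a small value can stand for a change that was measured poorly.

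**Figure D1:**
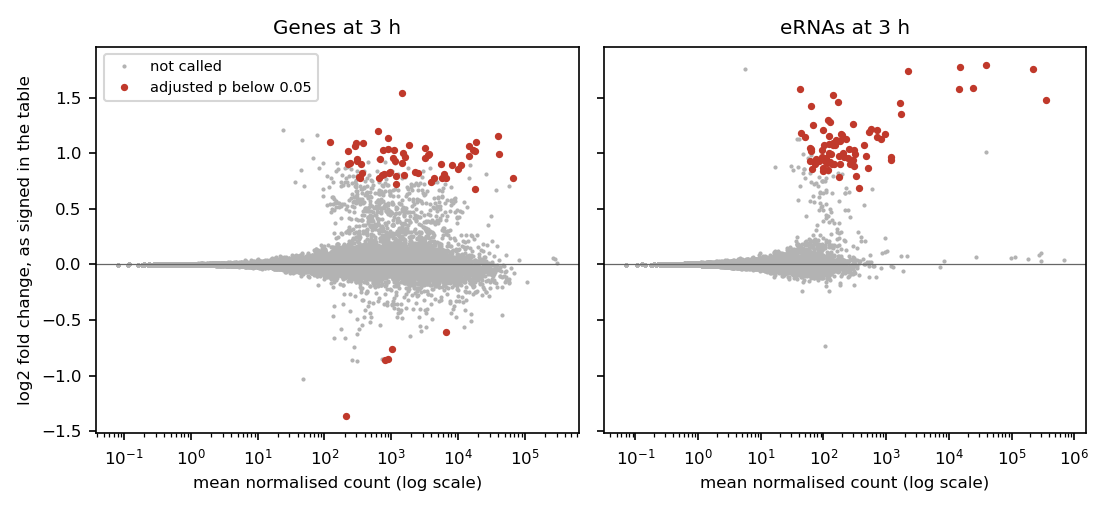
Each point is 1 gene (left) or 1 eRNA (right) of the deposited 3 h tables, with its mean normalised count on a log axis and its shrunken log2 fold change as signed in the table. Red points have an adjusted p below 0.05: 58 genes above 0 and 5 below, and 78 eRNAs, all above 0.

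Cd44, a hyaluronan receptor of the cell surface, and Aqp3, a water and glycerol channel, were the 2 genes with an adjusted p below 0.01 in the authors' deposited table. Cd44 (ENSMUSG00000005087, chr2:102811141-102901665, mm10, minus strand) was at 1.55 ± 0.32 with an adjusted p of 0.000652 per the authors' deposited table, a fold of 2.92. Aqp3 (ENSMUSG00000028435, chr4:41092722-41098183, minus strand) was at 1.20 ± 0.22 with an adjusted p of 4.83e-05 per the authors' deposited table, a fold of 2.30. Across all called positive genes the log2 fold change ran from 0.68 to 1.55 per the authors' deposited table, with a median of 0.93 and standard errors from 0.22 to 0.40. Sorted by known role, the 63 genes included 11 of the cytoskeleton, 7 of RNA processing and transcription, 7 of ubiquitin and lysosome, 7 of energy metabolism, 6 of the cell surface, 5 chaperones, 5 of signalling, 4 of translation and 3 of proliferation. These roles were assigned after the values had been seen.

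**Figure D2:**
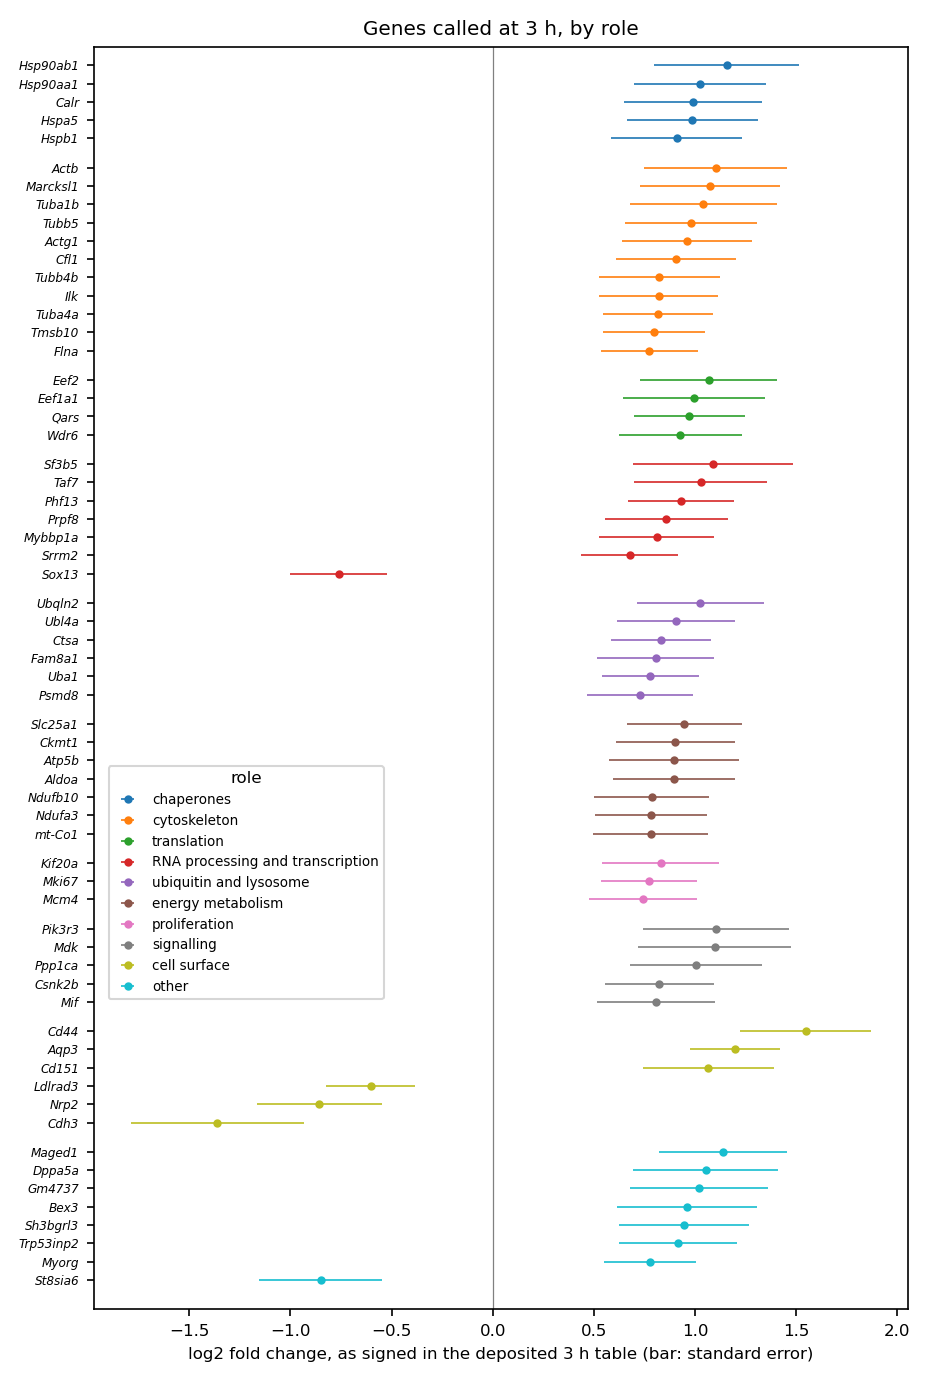
Shrunken log2 fold change (point) and standard error (bar) of genes called at 3 h, as signed in the deposited table, grouped by role, with 1 called gene not drawn. Cd44 at 1.55 and Cdh3 at −1.36 lie furthest out, and the other positive genes lie between 0.68 and 1.20.

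Chaperones, which fold other proteins, made up 5 of the called genes, all positive. Their median was 0.99, beside 0.93 over all called positive genes and 1.00 for the 5 called signalling genes. Hsp90ab1, the constitutive cytosolic HSP90, was at 1.16 ± 0.36 per the authors' deposited table (adjusted p = 0.0408), and its inducible partner Hsp90aa1 at 1.02 ± 0.33. Hspb1, a small heat shock protein, was at 0.91 ± 0.32 per the authors' deposited table. The lumenal chaperones of the endoplasmic reticulum (ER) Hspa5, known as BiP, and Calr, calreticulin, were at 0.99 ± 0.32 and 0.99 ± 0.34 per the authors' deposited table. Of the 22 heat shock and cytosolic chaperone genes measured, 3 were called positive and 0 negative per the authors' deposited table, 19 had a positive sign and the median was 0.09, against a median of −0.00 and 44.5% positive signs over all 18291 genes. The lowest member with a mean count of at least 100 was the co-chaperone Bag3 (−0.10, adjusted p = 0.584) per the authors' deposited table. All 15 ER chaperones had a positive sign per the authors' deposited table, 2 of them called, with a median of 0.30 and a range from 0.04 (Dnajc3) to 0.99 (Calr). The TRiC chaperonin and prefoldin, which fold actin and tubulin, had 12 of 14 positive signs and 0 calls per the authors' deposited table. Cct5, a chaperonin subunit, led them at 0.54 ± 0.25 (adjusted p = 0.0952) per the authors' deposited table, and 6 of the 14 had an unadjusted p below 0.05, all positive.

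The promoters of called chaperone genes are shown because all members of the ER list carried the same sign. The sequences are the 250 bases before the RefSeq transcription start (GRCm38.p6), 5′ to 3′ on the strand of the gene. Capitals in the first 2 mark the ER stress response element, CCAAT and CCACG with 9 bases between them on either strand, the site through which the unfolded protein response acts on these genes, and in the third the heat shock element GAANNTTC, which reads the same on both strands. The regions are chr2:34771840-34772089 (plus strand) for Hspa5, chr8:84846932-84847181 (minus strand) for Calr and chr5:135887669-135887918 (plus strand) for Hspb1.
Hspa5: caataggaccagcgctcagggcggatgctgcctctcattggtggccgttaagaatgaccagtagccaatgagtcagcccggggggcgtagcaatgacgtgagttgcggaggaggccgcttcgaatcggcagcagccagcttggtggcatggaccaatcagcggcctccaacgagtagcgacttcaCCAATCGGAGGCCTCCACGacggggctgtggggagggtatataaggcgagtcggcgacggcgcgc
Calr: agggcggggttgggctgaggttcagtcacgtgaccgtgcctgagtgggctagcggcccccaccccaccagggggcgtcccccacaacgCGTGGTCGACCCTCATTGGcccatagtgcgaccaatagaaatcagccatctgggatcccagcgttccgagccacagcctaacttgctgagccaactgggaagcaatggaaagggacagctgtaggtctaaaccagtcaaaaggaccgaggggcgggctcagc
Hspb1: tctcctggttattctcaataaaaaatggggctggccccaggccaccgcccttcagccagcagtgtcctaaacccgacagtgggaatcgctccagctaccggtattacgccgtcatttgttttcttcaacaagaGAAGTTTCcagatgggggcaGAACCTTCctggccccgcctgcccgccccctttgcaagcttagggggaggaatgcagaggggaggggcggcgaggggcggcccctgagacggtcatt
The ER element was found in 7 of the 13 ER chaperone promoters in the RefSeq table, and in 37 of all 32851 promoters there (0.113%). These 7 genes were Calr, Canx, Creld2, Dnajc3, Hsp90b1, Hspa5 and Pdia6, and the element was in 0 of 17 promoters of the heat shock list and 0 of 57 of ribosomal protein genes. GAANNTTC was found in 6 of the 17 heat shock promoters and in 6.69% of all promoters. Of the 45 called positive genes with a promoter in the table, 2 held each element. CCAAT alone, which also forms the left end of the ER element, was in 13 of the 13 ER promoters, either strand counted. It was in 36.0% of the 14186 and in 33.8% of all promoters. A match is a description of these letters, and its part in the values at 3 h was not tested.

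Of the called genes 11 were assigned to the cytoskeleton, and these were positive. Actb, cytoplasmic beta-actin, was at 1.10 ± 0.35 per the authors' deposited table and Actg1, gamma-actin, at 0.96 ± 0.32. The tubulins Tuba1b (1.04), Tubb5 (0.98), Tubb4b (0.82) and Tuba4a (0.82) were called per the authors' deposited table. So were Marcksl1, an actin-binding membrane protein (1.07), Cfl1, cofilin, which severs actin filaments (0.91), Ilk, integrin-linked kinase (0.82), Tmsb10, a thymosin that binds actin monomers (0.80), and Flna, filamin A, which cross-links filaments (0.77), per the authors' deposited table. Of 26 actin and tubulin genes in the list for this group, 8 were called positive and 0 negative per the authors' deposited table. A positive sign was found for 22, and the median over the 26 was 0.16. Actn4, the actinin that bundles filaments, was the lowest at −0.07 (adjusted p = 0.697) per the authors' deposited table. This list, like the others, was drawn up with earlier results known. Over all genes with an adjusted p, 0.531% were called positive and 0.0458% negative. Over all 18291 genes 44.5% had a positive sign, and these shares stand beside every list described here. Actin, tubulin and thymosin genes, like Hsp90ab1, Hsp90aa1 and Eef1a1, have near-identical copies in the genome, so their counts depend on how multi-mapping reads were treated and are uncertain. Tuba1b also overlaps another coding gene on its strand.

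In translation, 2 elongation factors were called: Eef2, which moves the ribosome along, at 1.07 ± 0.34 per the authors' deposited table, and Eef1a1, which brings in aminoacyl-tRNA, at 1.00 ± 0.35. Qars, the glutaminyl-tRNA synthetase, was at 0.97 ± 0.27, and Wdr6, a partner of a tRNA methyltransferase, at 0.93 ± 0.30 per the authors' deposited table. Cytosolic ribosomal protein genes had 72 of 78 positive signs per the authors' deposited table and 0 calls in either direction, while 38 had an unadjusted p below 0.05, all positive, and the median was 0.12. Their range ran from Rps15a (−0.07, adjusted p = 0.668) to Rpl4 (0.90 ± 0.35, adjusted p = 0.0624) per the authors' deposited table. Of 36 initiation and elongation factors 30 had a positive sign and 2 were called per the authors' deposited table, and of 20 aminoacyl-tRNA synthetases 16 had a positive sign and 1 was called. Nucleolar genes had 23 of 30 positive signs and 1 call per the authors' deposited table, Mybbp1a, a binding partner of MYB found in the nucleolus (0.81 ± 0.29).

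Genes of RNA processing and transcription added Sf3b5, a subunit of the splicing factor SF3B (1.09 ± 0.40), Taf7, of the general factor TFIID (1.03 ± 0.33), and Phf13, a reader of methylated histone H3 (0.93 ± 0.26), per the authors' deposited table. Prpf8, the core protein of the spliceosome, was at 0.86 ± 0.31 and Srrm2, a scaffold of nuclear speckles, at 0.68 ± 0.24 per the authors' deposited table. Splicing factors and hnRNPs had 36 of 42 positive signs and 2 calls per the authors' deposited table, with a median of 0.13. The lowest was Hnrnpf (−0.09, adjusted p = 0.617) per the authors' deposited table. The list of histone chaperones and elongation factors, to which FACT belongs, had 23 of 35 positive signs and 0 calls per the authors' deposited table. Its extremes were Ssrp1 and the chromatin remodeller Chd2 (−0.22, adjusted p = 0.299) per the authors' deposited table, and 7 members were positive and 1 negative at an unadjusted p below 0.05.

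Protein breakdown was represented by Uba1, the E1 enzyme that starts the ubiquitin cascade (0.78 ± 0.24), Psmd8, a subunit of the proteasome lid (0.73 ± 0.26), Ubqln2, a shuttle of ubiquitinated proteins (1.03 ± 0.32), Ubl4a, of the pathway that handles tail-anchored proteins (0.91 ± 0.29), and Fam8a1, of ER-associated degradation (0.80 ± 0.29), per the authors' deposited table. The lysosomal enzyme Ctsa, cathepsin A, was at 0.83 ± 0.25 per the authors' deposited table. Of 31 proteasome genes 23 had a positive sign and 1 was called per the authors' deposited table. Psmb7, a catalytic subunit with an exonic share of 6.10%, was the lowest at −0.04 per the authors' deposited table.

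In energy metabolism the called genes were Slc25a1, the mitochondrial citrate carrier (0.95 ± 0.29), Ckmt1, mitochondrial creatine kinase (0.90 ± 0.29), Atp5b, the beta subunit of ATP synthase (0.90 ± 0.32), and Aldoa, aldolase A (0.90 ± 0.30), per the authors' deposited table. The complex I subunits Ndufb10 and Ndufa3 were at 0.78 ± 0.28 each per the authors' deposited table, and so was mt-Co1, the mitochondrially encoded oxidase subunit. Nuclear genes of oxidative phosphorylation had 53 of 56 positive signs and 2 calls per the authors' deposited table, with a median of 0.10. The mitochondrially encoded genes, although wholly exonic, had 6 of 13 positive signs per the authors' deposited table, with mt-Nd6 at −0.02 and a median of −0.00. Among the 7 of them with a mean count of at least 100, positive signs made up 71.4%. Aldoa was the single glycolytic gene called, and 16 of 24 glycolytic genes had a positive sign per the authors' deposited table, the lowest being Hk2, a hexokinase (−0.15, adjusted p = 0.451).

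Among proliferation genes Kif20a, a kinesin of cytokinesis, was at 0.83 ± 0.29, Mki67, the Ki-67 antigen, at 0.77 ± 0.24, and Mcm4, a subunit of the replicative helicase, at 0.74 ± 0.27 per the authors' deposited table. The G2/M list had 19 of 24 positive signs and 2 calls per the authors' deposited table, and the G1/S list 18 of 24 and 1. At the other end E2f2 stood at −0.17 (adjusted p = 0.396) and Cdk1, the mitotic kinase, at −0.03 (adjusted p = 0.883) per the authors' deposited table. Of 65 histone genes expressed with DNA replication, 50 had a positive sign per the authors' deposited table, with a median of 0.01. Of the 47 with an adjusted p 0 were called, and 1 member had an unadjusted p below 0.05. In signalling, Pik3r3, a regulatory subunit of PI3 kinase (1.10 ± 0.36), Mdk, the growth factor midkine (1.10 ± 0.38), Ppp1ca, a catalytic subunit of protein phosphatase 1 (1.00 ± 0.33), Csnk2b, of casein kinase 2 (0.82 ± 0.27), and Mif, a cytokine (0.81 ± 0.29), were called per the authors' deposited table. The remaining positive genes were Cd151, a tetraspanin of the cell surface (1.07 ± 0.32), Maged1, a MAGE family protein (1.14 ± 0.32), Dppa5a, an RNA-binding protein of pluripotent cells (1.05 ± 0.36), Gm4737 (1.02), Bex3 (0.96), Sh3bgrl3 (0.95), Trp53inp2, which takes part in autophagy (0.92 ± 0.29), and Myorg, a glycosidase-like protein (0.78), per the authors' deposited table.

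Of the 5 negative genes, 3 encode proteins of the cell surface, a role that also held 3 positive genes, 1 a sialyltransferase and 1 a transcription factor. Cdh3, P-cadherin (ENSMUSG00000061048, chr8:106510891-106557297, plus strand), was at −1.36 ± 0.43 with an adjusted p of 0.0408 per the authors' deposited table, a fold of 0.389. Nrp2, a receptor of semaphorins and VEGF, was at −0.86 ± 0.31, and Ldlrad3, of the LDL receptor family, at −0.60 ± 0.22 per the authors' deposited table. St8sia6, the sialyltransferase, was at −0.85 ± 0.30 and Sox13, an SRY-box factor, at −0.76 ± 0.24 per the authors' deposited table. For 0 h, Cdh3 was at −1.63 ± 0.26 (adjusted p = 7.41e-08) per the authors' deposited table of that time. Its direction is likewise not given, but by title the 0 h libraries are of untagged and of tagged cells, none given auxin. The part of a difference between these cells before auxin in the value of Cdh3 at 3 h was not tested. St8sia6 was at −0.74 (adjusted p = 0.128) and the other 3 at −0.00 per the authors' deposited table for 0 h. Adhesion genes split: of 30 members 13 had a positive sign per the authors' deposited table, Cd44 being called positive and Cdh3 negative, and the median was −0.00. Axon guidance genes had 18 of 49 positive signs and 1 call, Nrp2, per the authors' deposited table. Genes of like mean count and exonic share had 35.1% positive signs beside the 36.7% of axon guidance genes, and 26.7% beside the 43.3% of adhesion genes, per the authors' deposited table. Of these 49, 0 were positive and 6 negative at an unadjusted p below 0.05.

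Pluripotency factors did not pass the test, apart from Dppa5a. Pou5f1 was at 0.40 ± 0.36 (adjusted p = 0.211), Nanog at 0.07 ± 0.13 (adjusted p = 0.680) and Sox2 at 0.04 ± 0.12 (adjusted p = 0.802) per the authors' deposited table. Zfp42, known as Rex1, was the lowest of 8 core factors at −0.12 ± 0.16 (adjusted p = 0.498) per the authors' deposited table. In the naive network 11 of 29 genes had a positive sign per the authors' deposited table, with a median of −0.02, 4 positive and 0 negative at an unadjusted p below 0.05, and Jarid2, a Polycomb cofactor, lowest at −0.13. The embryonic stem cell markers were well counted at 3 h, with a median mean count of 8493 over 8 markers per the authors' deposited table. The corresponding medians were 42.4 for primitive endoderm, 36.8 for germline, 18.2 for trophoblast, 3.05 for neural and 2.97 for fibroblast markers per the authors' deposited table. No member of these 5 lists was called, and 0 members were positive and 4 negative at an unadjusted p below 0.05. Most members had no adjusted p and so could not be called. Those with one were 7 of 18 for primitive endoderm, 4 of 18 for germline and 6 of 14 for trophoblast markers. For neural and fibroblast markers they were 3 of 10 and 2 of 11. In bulk RNA a change in the number of cells of a kind and a change per cell cannot be told apart.

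No ERK feedback gene, immediate early gene or member of the integrated stress response list passed the test. In that order 11 of 14, 12 of 25 and 17 of 22 members had an adjusted p, and the others could not be called. ERK feedback genes, which dampen MAP kinase signalling and are read here in cells grown with a MEK inhibitor, had 2 of 14 positive signs and a median of −0.04 per the authors' deposited table. Spred2, an inhibitor of RAS signalling, was the lowest at −0.57 ± 0.22 (adjusted p = 0.0567) per the authors' deposited table, and Ets2 the highest at 0.05. At an unadjusted p below 0.05, 0 of the 14 were positive and 1 was negative. Immediate early genes had 18 of 25 positive signs and a median of 0.00 per the authors' deposited table, with Srf at 0.22 (adjusted p = 0.289) and Myc at −0.07 (adjusted p = 0.565). Genes of the integrated stress response had 17 of 22 positive signs per the authors' deposited table, led by the factor Atf5 (0.76 ± 0.39, adjusted p = 0.113). At an unadjusted p below 0.05, 1 immediate early gene and 3 of these were positive, and 0 were negative. The p53 targets had 12 of 25, Wnt genes 10 of 26, LIF and STAT3 genes 8 of 16 and hypoxia genes 7 of 20 positive signs per the authors' deposited table, each with 0 calls. In the same order 23, 17, 15 and 17 members had an adjusted p. At an unadjusted p below 0.05 these 4 lists held 2, 1, 0 and 0 positive and 0, 2, 0 and 1 negative members. Sterol and lipid synthesis genes had 18 of 25 positive signs and 0 calls per the authors' deposited table, led by the desaturase Scd1 (0.64 ± 0.29, adjusted p = 0.0941).

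**Figure D3:**
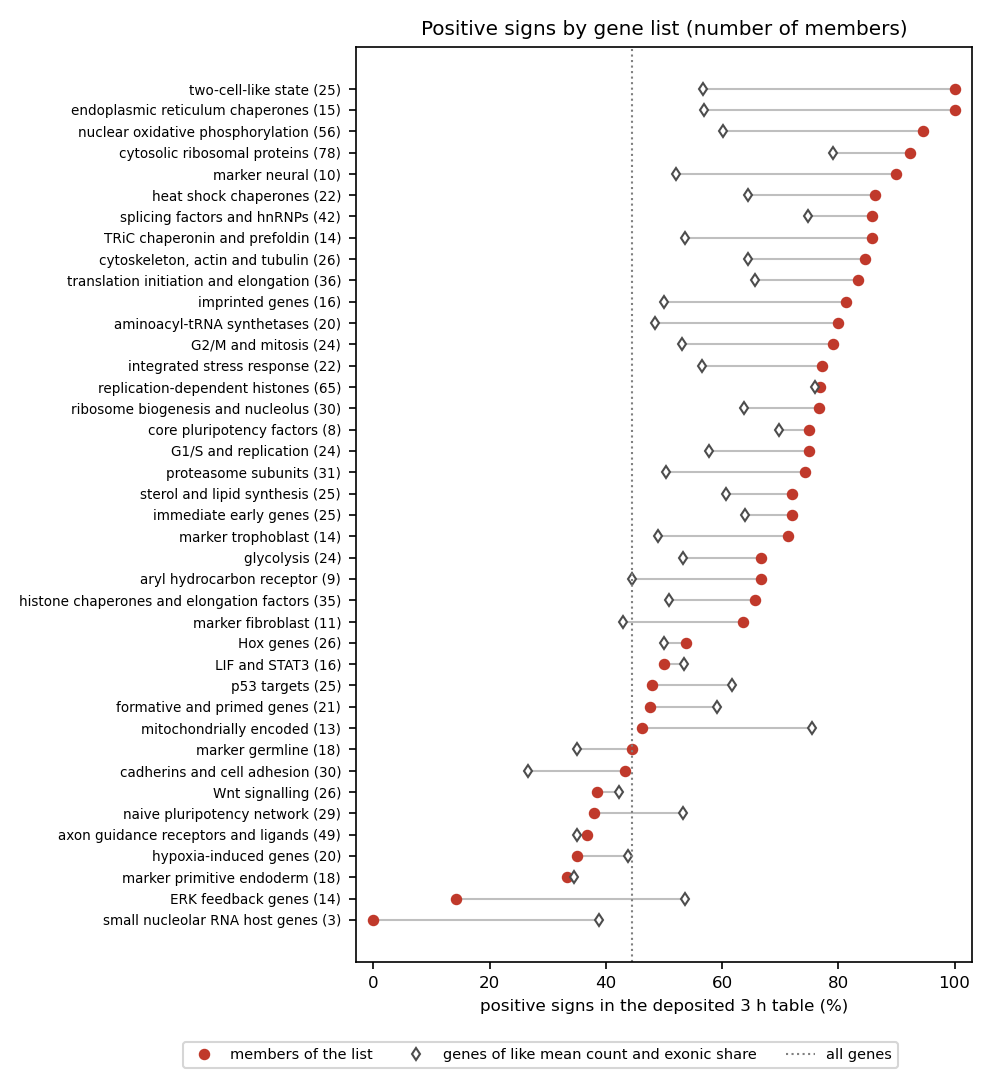
Percentage of members with a positive sign in the deposited 3 h table for 40 gene lists (filled circles, number of members in brackets), beside the percentage over all genes in the same cells of a 5 by 5 grid of mean count and exonic share (open diamonds). The dotted line marks 44.5%, the value over all genes. ER chaperones, at 100% against 56.8%, and ERK feedback genes, at 14.3% against 53.7%, lie far from their diamonds in opposite directions.

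The sign of a gene went with its exonic share across the whole table. In 5 equal bins of exonic share, positive signs made up 22.1%, 29.4%, 43.0%, 58.3% and 69.7% of genes per the authors' deposited table, from the lowest share (median 4.24%) to the highest (median 62.3%). Genes with an unadjusted p below 0.05 followed the same order: in the lowest bin 15 were positive and 260 negative, in the middle bin 88 and 64, and in the highest 608 and 20, per the authors' deposited table. The median log2 fold change was small in each bin, from −0.02 in the lowest to 0.01 in the highest per the authors' deposited table. Over the rows with an adjusted p the end bins stood at 16.99% and 84.7%. With length the order was the reverse: from the shortest bin (median 4.23 kb) to the longest (median 125 kb) positive signs made up 66.7%, 57.2%, 46.0%, 32.1% and 20.4% per the authors' deposited table. Genes are not replicates and share libraries, so these are descriptions without a test.

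**Figure D4:**
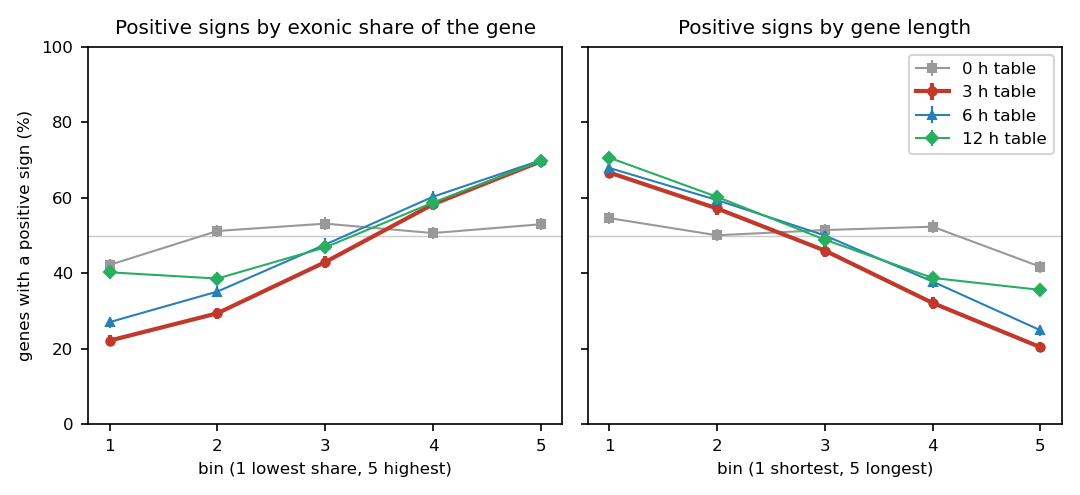
Percentage of genes with a positive sign in 5 equal bins of exonic share (left) and of gene length (right), for the deposited tables of 0, 3, 6 and 12 h, with 95% exact binomial intervals that cover counting error only. At 3 h (red) the share runs from 22.1% to 69.7% with exonic share and from 66.7% to 20.4% with length, and at 0 h from 42.2% to 52.99% and from 54.6% to 41.7%.

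Length and exonic share move together, so each was read within bins of the other. Within the shortest bin of length, positive signs ran from 38.1% in the second bin of exonic share to 70.9% in the highest, per the authors' deposited table. Within the longest, they stood at 19.95%, 18.6% and 28.7% in the first 3 bins, and the other bins held under 20 genes. Read the other way, within the second bin of exonic share they stood at 38.1% in the shortest genes and 18.6% in the longest, and within the highest bin at 70.9% in the shortest and 54.5% in the fourth bin of length (22 genes). Both properties therefore went with the sign when the other was held within a bin. The count of a gene mattered as well: in the highest bin of mean count positive signs ran from 9.4% to 89.4% across exonic share per the authors' deposited table, and in the lowest from 32.6% to 44.2%. Total exon length gave a smaller spread, from 49.9% in the bin with the fewest exonic bases to 33.0% in that with the most. The number of exons gave 58.0% to 31.8%.

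**Figure D5:**
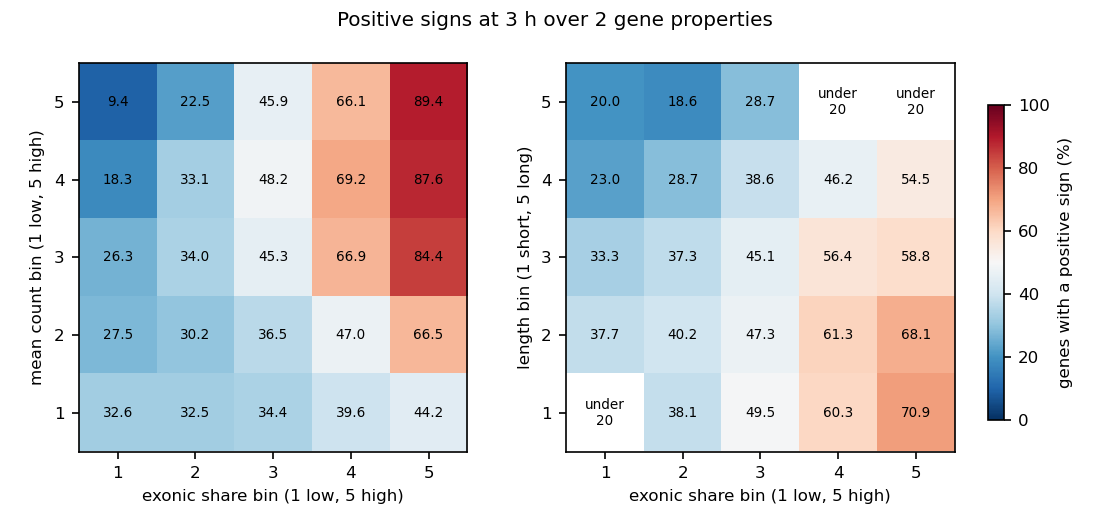
Percentage of genes with a positive sign at 3 h in a 5 by 5 grid of mean count (left) or gene length (right) by exonic share. Cells with under 20 genes are white and marked so. In both panels the colour turns from blue to red along the exonic share axis, from 9.4% to 89.4% in the row of highest mean count.

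The extremes of the annotation show the same order. The 637 genes with a single exon block had 69.1% positive signs per the authors' deposited table, and the 169 of them with an adjusted p had 89.9%. The 2272 genes under 5 kb had 68.5% and the 2446 genes of 100 kb or more had 19.5%, whereas the 352 genes of 400 kb or more stood at 33.2%. Genes of highest mean count in the lowest bin of exonic share included Cmss1 (0.01), Gphn (0.04), Cobl (−0.07) and Aff1 (−0.16) per the authors' deposited table. The 5 genes of highest mean count in the highest bin were mt-Co1 (0.78), Hsp90ab1 (1.16), mt-Nd5 (−0.00), mt-Nd1 (0.67) and mt-Cytb (0.21) per the authors' deposited table. The called genes followed this layout: exons made up a median of 56.6% of the span of the 58 positive ones, 9.45% of the 5 negative ones and 16.9% of uncalled genes with an adjusted p. Their median lengths, in the same order, were 5.61, 115 and 28.8 kb. Of the 63, 44 lay in the highest bin of exonic share and 3 in the lowest. Positive genes that went against the layout included Cd44 (exonic share 7.49%, 90.5 kb) and Pik3r3 (6.51%, 81.4 kb). Of the 63 called genes 31 overlap another annotated gene, 9 of them on the same strand and 3 of these, Ubl4a, Pik3r3 and Tuba1b, a coding one. How reads of the time course were assigned to overlapping genes is not given in the sources used here.

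The lists were set beside genes of like mean count and exonic share, as a description. Gene length, which also went with the sign within bins of exonic share, was not matched. Its part in the differences between the lists and these genes was not tested. Averaging over members the percentage positive in each gene's cell of the grid of mean count by exonic share gave 56.8% for the ER chaperones, whose members stood at 100%. For nuclear oxidative phosphorylation the values were 60.2% and 94.6%, for TRiC and prefoldin 53.6% and 85.7%, for the proteasome 50.3% and 74.2%, and for the cytoskeleton 64.5% and 84.6%. Ribosomal protein genes, with a grid value of 79.1%, stood at 92.3%, and histone genes at 76.9% against 76.0%. On the other side the ERK feedback genes stood at 14.3% against 53.7%. The naive network stood at 37.9% against 53.3%, which lies within its exact binomial interval of 20.7% to 57.7%. The mitochondrially encoded genes stood at 46.2% against 75.4%, but at 71.4% among the 7 with a mean count of at least 100. Of all 13, 3 were positive and 0 negative at an unadjusted p below 0.05. These percentages are from the authors' deposited table and carry no test.

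At the other times most of the 58 genes had a positive sign again, and few were called. At 6 h 56 had a positive sign with a median of 0.37, and at 12 h 57 with a median of 0.30, per the authors' deposited table for each time. Over all genes positive signs made up 48.0% at 6 h and 50.8% at 12 h, and in the highest bin of exonic share, which held most of the called genes, 69.95% and 69.7%, per the authors' deposited table for each time. At 6 h 6 were called, Aqp3, Ctsa, Trp53inp2, Phf13, Wdr6 and Sh3bgrl3, all positive, where 3.1% of all genes tested were called and 1.71% were called positive. At 12 h 4 were called, Aqp3, Trp53inp2, Myorg and Fam8a1, all positive, where 20.7% of genes were called and 8.58% were called positive. The descriptions tie the values of each time to the libraries of that time. The same clones recur at every time, so these counts are not independent and are given side by side. Trp53inp2 was at 0.92 at 3 h, 1.58 at 6 h and 2.21 at 12 h per the authors' deposited table for each time. Aqp3 was at 1.20, 0.81 and 1.41 and Phf13 at 0.93, 1.14 and 0.85 at the same times per the authors' deposited table. Cd44, by contrast, was at 0.02 at 6 h and 0.32 at 12 h (adjusted p = 0.449), Dppa5a at −0.01 at 6 h, and Hsp90ab1 at 0.24 and 0.10 per the authors' deposited table. Among the negative genes Nrp2 was called at 6 h (−0.92) and 12 h (−1.10), and Cdh3 (−0.95) and St8sia6 (−0.74) at 12 h, per the authors' deposited table for each time, where 1.39% and 12.1% of genes were called negative. At 0 h, per the authors' deposited table, 49 of the 58 positive genes had a positive sign and 0 were called, with 0.0201% of genes called positive there and positive signs in 50.05% of all genes. Their median log2 fold change at 0 h was 0.00.

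A separate washout experiment gives levels for these genes in SPT16-AID cells given vehicle for 12 h and sampled 24 h after washout. The 4 EtOH libraries held 11068135 to 16554314 counts, and the level is the count over the whole gene per kb, scaled to the library total (RPKM). The genes positive at 3 h had a median level of 6.74 RPKM, against 1.15 for the negative genes, 1.62 for genes with an adjusted p and 0.535 for all genes. Hsp90ab1 was at 79.6, 111.2, 68.8 and 82.0 in the 4 libraries (mean 85.4), and Actb at 73.9, 168.5, 71.4 and 100.2. By their mean both stood above 99.9% of genes. Cd44 was low, at 0.243, 0.3995, 0.233 and 0.350 (mean 0.306). Cdh3 was at 0.220, 1.33, 0.322 and 1.20, and Aqp3 at 3.62, 6.11, 3.21 and 5.08. The 4 libraries are 2 of each of 2 lines, so they are not 4 independent samples and no SD is given. For all 5 of these genes the library numbered 2 was above that numbered 1 in both lines, as for 26 of the 63 called genes, while 15 had the opposite order in both. The same count over all genes was not made, so these counts do not set the called genes apart from the rest. The part of the replicate number in the values at 3 h was not tested. The authors' deposited table of the washout sets IAA against EtOH, each given for 12 h and followed by 24 h of washout. In it 20 of the 58 were called higher in the IAA group and 0 lower. Over all genes tested there, 8.96% were called higher and 7.05% lower. Among the 20, Cd44 (3.60 ± 0.28) was the furthest out per the authors' deposited table. The washout values are not described as shrunken, unlike those of the time course, so their sizes are not comparable. None of the 5 negative genes was called there, at values from −0.69 (Cdh3) to 0.29 (St8sia6), and their smallest adjusted p was 0.318 (Nrp2) per the authors' deposited table.

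Noncoding classes differed in how many features were called, but their percentages rest on unlike sets. An adjusted p was given to 1440 of the 11702 eRNAs with a p-value, none with a mean count below 42.5. Every DHS and PROMPT with a p-value had one, down to mean counts of 0.0732 and 0.0814. Benjamini-Hochberg adjustment over all eRNAs with a p-value left 16 called. Of 1440 eRNAs with an adjusted p, 78 were positive and 0 negative at 3 h per the authors' deposited table, which is 5.42%. At an unadjusted p below 0.05, 284 were positive and 91 negative per the authors' deposited table. The called eRNAs had a median log2 fold change of 1.06, from 0.69 to 1.80, per the authors' deposited table. The leading ones were ENH14701 (1.80 ± 0.45), ENH14662 (1.77 ± 0.43), ENH4418 (1.76 ± 0.41), ENH14552 (1.74 ± 0.46) and ENH14378 (1.59 ± 0.43) per the authors' deposited table. Counts in this class were concentrated: per the authors' deposited table the 10 eRNAs of highest mean count held 87.1% of the summed mean count, and 6 of the called ones had a mean count of at least 10000, ENH14729 being highest at 347690. The tables give no coordinates, so what lies under these features was not analysed here. All 78 had a positive sign at 6 h and 36 were called positive, where 6.91% of eRNAs tested were called, 6.0% positive and 0.919% negative, per the authors' deposited table for that time. At 12 h 74 had a positive sign and 3 were called positive, where 4.56% were called, 2.54% positive and 2.01% negative, per the authors' deposited table for that time. At 0 h 0 of the 78 were called, where 0.0% were, but 4 of the 6 with the highest mean counts had values well above 0 per the authors' deposited table for that time. These were ENH4418 (1.03 ± 0.32, unadjusted p = 7.8e-05, adjusted p = 0.939), ENH14877 (0.92 ± 0.35), ENH14729 (0.90 ± 0.34) and ENH14378 (0.64 ± 0.34) per the authors' deposited table for 0 h. Of the leading features at 3 h, ENH4418 was at 0.25 at 6 h and 0.09 at 12 h per the authors' deposited table, and ENH14701 at 0.22 and 0.14.

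DHSs and PROMPTs gave few calls. Of 32517 DHSs, 4 were called at 3 h, which is 0.0123%, per the authors' deposited table: DHS185339 (2.17 ± 0.37), DHS36216 (1.88 ± 0.40), DHS100297 (1.87 ± 0.41) and DHS173150 (1.76 ± 0.36). The other DHSs were shrunken almost to 0, 99.9% of all log2 fold changes lying within 0.001 of 0 per the authors' deposited table, and 77 were positive and 97 negative at an unadjusted p below 0.05. Of 13088 PROMPTs 0 were called (0.0%) per the authors' deposited table, with 55 positive and 95 negative at an unadjusted p below 0.05 and a smallest adjusted p of 0.983. PROMPTs of 40 of the 58 positive genes had a mean count above 0, and their smallest unadjusted p was 0.0504 (Tubb4b) per the authors' deposited table. For the negative genes 3 PROMPTs had counts and the smallest unadjusted p was 0.206 (Nrp2) per the authors' deposited table. The median mean count was 0.757 for PROMPTs and 0.760 for DHSs per the authors' deposited table, so a difference in most of these features was not detectable at this depth.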

How the data were processed

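TT-seq libraries of the 3 h groups were read through tables the authors deposited, 1 each for genes, PROMPTs, eRNAs and DHSs. Each gives a mean normalised count per feature, a signal averaged by the authors over libraries, a shrunken log2 fold change with its standard error, and a p-value and adjusted p-value, as the authors deposited them. Column names match DESeq2 output, and its version, the compared groups and the aligner settings are not given in the sources used here. STAR, deepTools and mm10 are named in the submitters' processing notes. The washout counts the authors deposited were made with featureCounts 2.0.1 over whole genes on the reverse strand, per the file headers. The deposited washout table also holds a test score, which was not used. Calls are adjusted p below 0.05 as deposited. Exonic share and length come from GENCODE M21 (mm10). Bins are 5 equal groups of genes. Vehicle levels are counts per kb scaled to the library total (RPKM). Nothing says that replicates came from separate cultures beyond the clones. Intervals are 95% exact binomial (Clopper-Pearson) and cover counting error only. Functions were tested on simulated data. Python 3.11.15, pandas 2.3.3, numpy 2.4.6, scipy 1.17.1 and matplotlib 3.10.9 were used.

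Promoters are RefSeq (GRCm38.p6), matched by symbol for 49 of the 63 called genes, taking the start nearest to that of GENCODE. The genes, the 40 lists, the roles and the bins were chosen with earlier results of these data known. Genes named are the called ones (1 called gene, and 1 gene of high count, are not reported here), from each list the highest, the lowest and that of smallest adjusted p with a mean count of at least 100, the 5 genes of highest count in the end bins, fixed genes (Supt16, Ssrp1, Pou5f1, Sox2, Nanog), and the 5 leading eRNAs with a mean count of at least 50. Alternatives were other thresholds, Benjamini-Hochberg adjustment over all rows, count minimums, gene subsets and other definitions of exonic share.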

Additional observations from a re-analysis of the deposited data

Results flagged for a closer look

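Among the 63 called genes, the levels in the 4 vehicle-treated washout libraries held a single library apart in 2 cases. With independent samples chance alone would mark about 1 in 20 groups of this size. These libraries are 2 of each of 2 lines, so that rate does not strictly apply. Phf13 stood at 1.91, 1.96, 1.99 and 2.46 RPKM, and the gap of the highest library was 0.869 of the range. Gm4737 stood at 1.69, 1.70, 1.73 and 1.97, with a gap of 0.866. Both exceed Dixon's 95% limit for 4 independent samples, which these libraries are not. These levels enter no value at 3 h.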

How the results depend on the processing

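No paired analysis was possible because the 3 h tables hold no value per library. Calls depended on the threshold: at an adjusted p below 0.1 there were 158 positive and 14 negative genes, 2 negative eRNAs and 7 positive DHSs, and at 0.01 there were 2 positive and 0 negative genes and 31 positive eRNAs. Benjamini-Hochberg adjustment over all rows with a p-value left 2 positive genes (Aqp3 and Cd44), 0 negative genes and 16 positive eRNAs. A log2 fold change of at least 1 in size left 19 positive genes and 1 negative gene. Minimum mean counts of 10 or 100 left 58 and 5 genes called, and PROMPTs had 0 calls under every alternative run. The order of signs with exonic share and length kept its direction under all alternatives run. Its lowest and highest bins stood at 19.2% and 80.9% for genes counted at 10 or more, at 16.5% and 85.0% at 100 or more, and at 16.99% and 84.7% over rows with an adjusted p, the last chosen after the data were seen. With the exonic share of the longest transcript the highest bin stood at 63.5%. The shortest and longest bins of length stood at 80.5% and 18.6% at 10 or more and at 85.9% and 16.8% at 100 or more. The cause of these shifts was not tested. Protein-coding genes alone, and for exonic share also genes with at least 2 exons and the table without mitochondrial and ribosomal protein genes, moved no end bin beyond its interval. Of 119 percentages of single lists under alternatives, 111 stayed within the interval of the value reported, and 8 did not. After subtracting the median of the exonic share bin, histone genes stood at 40.0% positive, Hox genes at 26.9%, the 2-cell list at 84.0%, adhesion genes at 63.3% and neural markers at 50%. The other 3 were neural markers and imprinted genes under a count minimum, all at 100%. The grid of mean count by exonic share was also added after the data were seen. The tables keep no spread between libraries, so no result at 3 h could be read without 1 clone or replicate.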

Other observations

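Genes on the X chromosome carried more positive signs at 3 h than those of any autosome. Of 690 X-linked genes 381 had a positive sign per the authors' deposited table, 55.2% (95% exact binomial interval 51.4% to 59.0%), where the autosomes ran from 39.4% to 50.2% and the grid of mean count by exonic share gave 42.5%. Of the 349 X-linked genes with an adjusted p, 6 were called: Flna, Uba1, Ubl4a, Ubqln2, Maged1 and Bex3. Over all chromosomes 0.577% of genes with an adjusted p were called. All 6 were positive, as were 58 of all 63 called genes. Chromosome 2 held 7 positive and 2 negative calls among 879 such genes. This pattern was noticed in the data and was not tested.

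A state resembling the cleavage-stage embryo arises in a few embryonic stem cells, and all 25 of its measured marker genes had a positive sign per the authors' deposited table. None has an adjusted p there, 4 had an unadjusted p below 0.05, and the median mean count was 22.3 and the median log2 fold change 0.02. Several belong to families of near-identical copies (Zscan4, Tdpoz, Usp17l) and are uncertain for that reason. Imprinted genes had 13 of 16 positive signs per the authors' deposited table against a grid value of 50.1%, with Mest at 0.61 (adjusted p = 0.178) and Peg3 at 0.54 (adjusted p = 0.125) and 0 calls. At an unadjusted p below 0.05, 2 imprinted genes were positive and 0 negative.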
